A study of Homo sapiens with 9 samples.

Results

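Epithelial-mesenchymal transition genes were examined in RKO cells, a human colorectal cancer line, through the 10 genes CDH1, CDH2, VIM, ZEB1, ZEB2, SNAI1, SNAI2, TWIST1, EPCAM and FN1. They were chosen by name, and every probe carrying one of these names was taken, which gave 15 of the 50599 probes on the array and 10 of its 36337 gene names. Total RNA was hybridized in 1 colour to 9 arrays of Agilent's SurePrint G3 Human GE v2 design. In 4 groups of 2 arrays, cells were transfected with siRNA for 72 h and then kept for 24 h in ethanol (mock) or in 300 nM trichostatin A (TSA), an inhibitor of histone deacetylases. The groups were control siRNA with mock (siCONT), siRNA against UHRF1 with mock (siUHRF1), control siRNA with TSA (siCONT + TSA) and siRNA against UHRF1 with TSA (siUHRF1 + TSA). UHRF1 binds newly replicated DNA and brings the maintenance DNA methyltransferase to it. Replicate 1 of the depleted groups received the siRNA siUHRF1-1 and replicate 2 received siUHRF1-2, so the spread between them includes the difference between 2 siRNAs. The remaining array held cells exposed to 1 µM 5-aza-2'-deoxycytidine (5-aza-dC), a DNA methyltransferase inhibitor, for 72 h without any siRNA. Nothing states that the arrays of a group came from separate cultures, so p-values measure only the spread between these samples, which may be technical.

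In epithelial-mesenchymal transition, cells lose the junctions that hold an epithelial sheet together and gain the filaments and matrix of motile mesenchymal cells. CDH1 (E-cadherin) and EPCAM are adhesion molecules of epithelia, whereas CDH2 (N-cadherin), the intermediate filament protein vimentin (VIM) and fibronectin (FN1) belong to the mesenchymal state. The zinc finger factors SNAI1, SNAI2, ZEB1 and ZEB2 repress CDH1 through E-box sequences in its promoter, and TWIST1 is a basic helix-loop-helix factor of the same program. VIM is also known in colorectal cancer as a gene whose CpG-rich 5′ region is frequently methylated.

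The DNA before the gene starts is shown for VIM, which carries the main result, and for CDH2, ZEB2 and FN1, mesenchymal genes that differed in whether they were measured after 5-aza-dC. Every C followed by G, the dinucleotide that the methyltransferases modify, is in capitals. The 250 bases upstream of each start come from RefSeq on GRCh38.p14, read along the gene's strand. They lie at chr10:17227991-17228240 (plus strand) for VIM, chr18:28177131-28177380 (minus strand) for CDH2, chr2:144520120-144520369 (minus strand) for ZEB2 and chr2:215436069-215436318 (minus strand) for FN1.
VIM: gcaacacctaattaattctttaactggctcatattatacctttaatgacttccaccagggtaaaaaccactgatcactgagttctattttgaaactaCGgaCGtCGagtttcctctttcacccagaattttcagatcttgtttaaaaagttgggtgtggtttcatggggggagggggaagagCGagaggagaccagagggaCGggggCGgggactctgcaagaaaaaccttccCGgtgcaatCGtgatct
CDH2: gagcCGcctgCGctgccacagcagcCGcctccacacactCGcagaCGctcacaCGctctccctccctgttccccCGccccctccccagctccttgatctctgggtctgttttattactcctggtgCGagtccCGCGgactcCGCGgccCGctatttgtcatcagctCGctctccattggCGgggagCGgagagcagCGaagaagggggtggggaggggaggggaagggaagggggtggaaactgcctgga
ZEB2: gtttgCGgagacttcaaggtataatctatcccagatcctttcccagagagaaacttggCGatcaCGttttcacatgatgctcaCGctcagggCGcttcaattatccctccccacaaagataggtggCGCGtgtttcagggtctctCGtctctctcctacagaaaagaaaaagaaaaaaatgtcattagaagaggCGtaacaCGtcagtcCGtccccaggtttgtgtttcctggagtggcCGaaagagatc
FN1: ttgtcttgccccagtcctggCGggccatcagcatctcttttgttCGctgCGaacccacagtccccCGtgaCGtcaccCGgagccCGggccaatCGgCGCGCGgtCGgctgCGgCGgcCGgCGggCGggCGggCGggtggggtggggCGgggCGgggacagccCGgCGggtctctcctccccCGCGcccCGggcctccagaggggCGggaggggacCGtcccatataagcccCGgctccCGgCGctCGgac
Within the 300-base window of each start, 250 bases before it and 50 after, VIM held 10 CpG sites, ZEB2 held 14, CDH2 held 23 and FN1 held 38. Among the 35116 windows of the table the median was 14 and the quartiles were 4 and 28, so the VIM window was below the median and the FN1 window above the upper quartile. The window covers only the start that the table lists, so its count does not describe the whole 5′ region of a gene. Methylation was not measured in these files.

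Windows were found for 5 of the 10 genes, VIM, ZEB1, ZEB2, CDH2 and FN1, with 12 windows in all. ZEB1 had 7 listed starts with 7 to 35 CpG sites, and a further CDH2 start held 4. The E-box letters CAGGTG or their reverse complement CACCTG, the motif that SNAI and ZEB proteins bind, were present in 20.6% of all windows. Among the windows of these genes they occurred in 2 of the 7 ZEB1 windows and in none of the others. The ZEB1 window with the most of them is shown from chr10:31318966-31319215 (plus strand), with the E-boxes of the upstream part in capitals.
ZEB1: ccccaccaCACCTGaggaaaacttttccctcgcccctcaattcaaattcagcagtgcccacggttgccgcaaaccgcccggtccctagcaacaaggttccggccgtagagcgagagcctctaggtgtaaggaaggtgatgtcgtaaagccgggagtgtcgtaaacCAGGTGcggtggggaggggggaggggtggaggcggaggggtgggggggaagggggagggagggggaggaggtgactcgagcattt
A match is a description of these letters, and no binding was measured.

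Detection of the 10 genes differed between the siRNA arrays and the 5-aza-dC array. A probe was counted as measured when the scanner software marked its spot as well above background. VIM, ZEB1 and SNAI1 were measured on all 8 siRNA arrays, and EPCAM and SNAI2 on 1 and 2 of them. The other 5 genes, CDH1, CDH2, FN1, TWIST1 and ZEB2, were not well above background on any siRNA array by any probe. On the 5-aza-dC array 8 of the 10 genes were measured, and 3 of these 5 were among them. Of all genes below background on the siRNA arrays, 11.3% were measured on the 5-aza-dC array. CDH1, whose probe has 10 spots on the array, and FN1 were not measured on any of the 9 arrays.

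**Figure D1:**
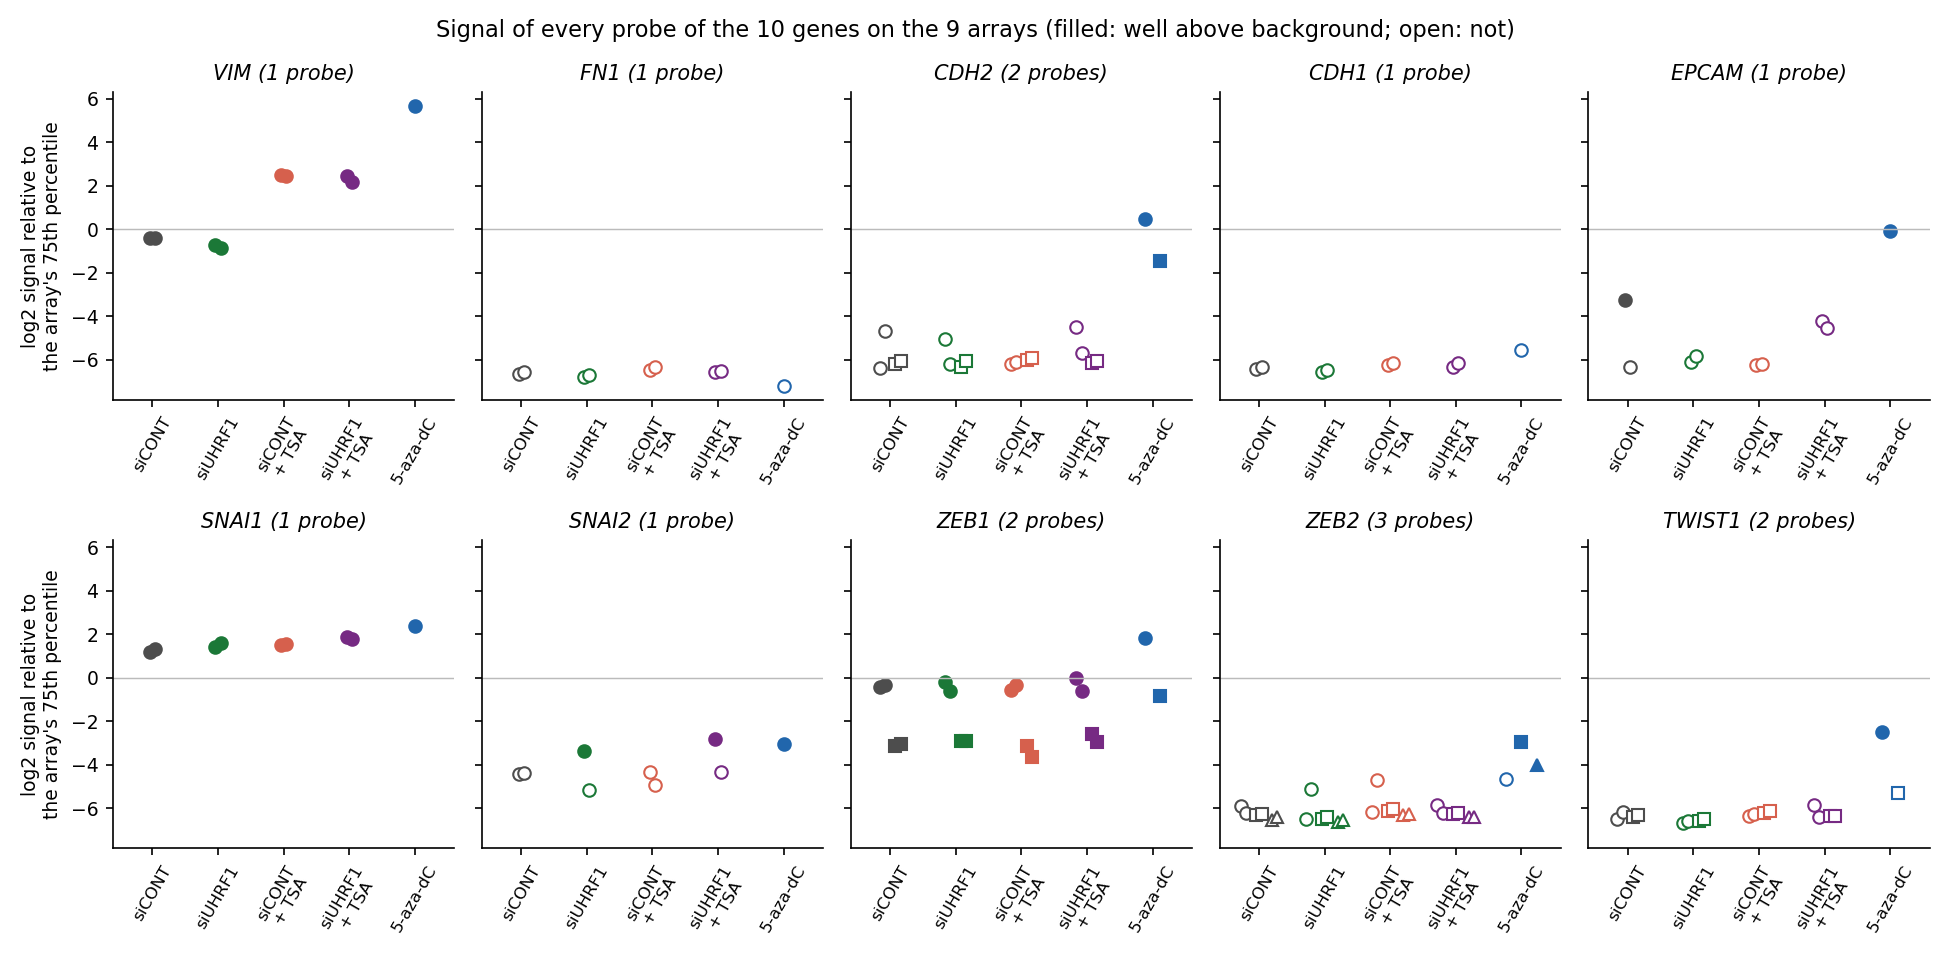
Log2 signal relative to the 75th percentile of each array, for every probe of the 10 genes, by group. Each point is 1 array, filled where the probe was well above background and open where it was not, and marker shapes separate the probes of a gene. VIM lies at 2.16 to 2.49 on the TSA arrays against -0.43 to -0.39 in siCONT, and CDH1 and FN1 are open on all 9 arrays.

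Several facts about the arrays bear on these values. Across the siRNA arrays the signal's 75th percentile ranged from 245.3 to 337.9 and 46.8% to 49.6% of spots were well above background, against 821.6 and 54.9% after 5-aza-dC. All 8 siRNA arrays lay on 1 slide, with mock arrays in row 1 and TSA arrays in row 2 and with the siCONT and siUHRF1 arrays in different columns, so that treatment and position cannot be told apart. The 5-aza-dC array was on a second slide with a scan of its own. UHRF1 fell by 2.47 (log2) in siUHRF1 against siCONT (adjusted p = 0.00238, limma) and by 3.35 with TSA (adjusted p = 0.000132). GAPDH differed by -0.12 to 0.09 in the 6 comparisons tested, with no call. The brightest ACTB probe rose by 0.47 with TSA alone (adjusted p = 0.084, limma) and by 0.36 with the combination against siCONT (adjusted p = 0.114). It rose by 0.40 with TSA in depleted cells (adjusted p = 0.101), and none of these was called. The other ACTB probe differed by -0.03 to 0.04. Markers of cell type were read by the brightest probe of each gene. Of 10 colorectal epithelial markers, CDX1, CDX2, KRT8 and KRT18 were measured on all 8 siRNA arrays and VIL1, CDH17, LGALS4 and GUCY2C on none. Of 6 markers of other cell types, CD68 and CDH5 were measured on all 8 and PTPRC on 5, whereas CD3E, PECAM1 and ALB were measured on none. CDH5 (-4.26 to -3.14) and this PTPRC probe (-4.81 to -3.40) lay near the limit of detection. A further CDX1 probe was measured on no array and a further KRT8 probe on 4 siRNA arrays. The other PTPRC probes were measured on 2 siRNA arrays or on none. In RNA from whole cultures, fewer cells of a type and less RNA per cell cannot be told apart.

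Of the 3 tested members VIM changed most. On the log2 scale relative to the 75th percentile, its level was -0.39 and -0.43 on the siCONT arrays and -0.71 and -0.85 on the siUHRF1 arrays. With TSA it was 2.49 and 2.45 in siCONT + TSA and 2.45 and 2.16 in siUHRF1 + TSA. The 4 TSA arrays lay above all 4 mock arrays, with no overlap. The probe measured 60 bases of the transcript, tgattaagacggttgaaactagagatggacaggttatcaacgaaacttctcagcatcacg, and the gene has only this probe on the array.

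TSA alone raised VIM 7.35-fold. The log2 difference between siCONT + TSA (mean 2.47 ± 0.03, SD, n = 2) and siCONT (-0.41 ± 0.03, SD, n = 2) was 2.88, with a standard error of 0.124 and a 95% interval of 2.58 to 3.18 (adjusted p = 0.000932, limma). VIM was the only 1 of the 3 tested members that passed the threshold here, where 10.8% of all genes tested did, 6.97% higher and 3.86% lower. ZEB1 differed by -0.07 (95% interval -0.62 to 0.48, adjusted p = 0.862) and SNAI1 by 0.27 (0.01 to 0.53, adjusted p = 0.162).

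VIM was not higher after UHRF1 depletion alone. Both siUHRF1 arrays (mean -0.78 ± 0.10, SD, n = 2) were below both siCONT arrays, a log2 difference of -0.37 (95% interval -0.67 to -0.07) that did not pass the threshold (adjusted p = 0.436, limma, unadjusted 0.0239). Of the 3 tested members 0 were called in this comparison, against 0.637% of all genes (0.609% higher), while at an unadjusted p below 0.05 VIM and SNAI1 would be. SNAI1 was 0.27 higher (0 to 0.53, adjusted p = 0.552). ZEB1 differed by -0.02 (-0.57 to 0.53, adjusted p = 0.993).

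Under both treatments together VIM was again high. The mean of siUHRF1 + TSA was 2.31 ± 0.21 (SD, n = 2), which was 6.56-fold above siCONT (log2 2.71, adjusted p = 0.000128) and 8.47-fold above siUHRF1 (log2 3.08, adjusted p = 0.00017). Against siCONT + TSA it differed by -0.16 (95% interval -0.47 to 0.14, adjusted p = 0.56), and each of the 2 groups had an array at 2.45. The effect of depletion with TSA minus that without TSA was 0.20 for VIM, with an interval of -0.22 to 0.63 (adjusted p = 1). These intervals do not show that the effects were equal. In siUHRF1 + TSA against siCONT, 2 of the 3 tested members were called, both higher, where 24.1% of all genes were called, 16.1% higher and 8.07% lower. For siUHRF1 + TSA against siUHRF1 VIM alone was called, where 16.3% of genes were called and 10.8% were higher. No member was called for siUHRF1 + TSA against siCONT + TSA or for the difference between depletion effects, where 3.81% (3.22% higher, 0.581% lower) and 0.361% (0.333% higher) of genes were. At an unadjusted p below 0.05 SNAI1 and a ZEB1 probe would be called in the former and none in the latter.

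**Figure D2:**
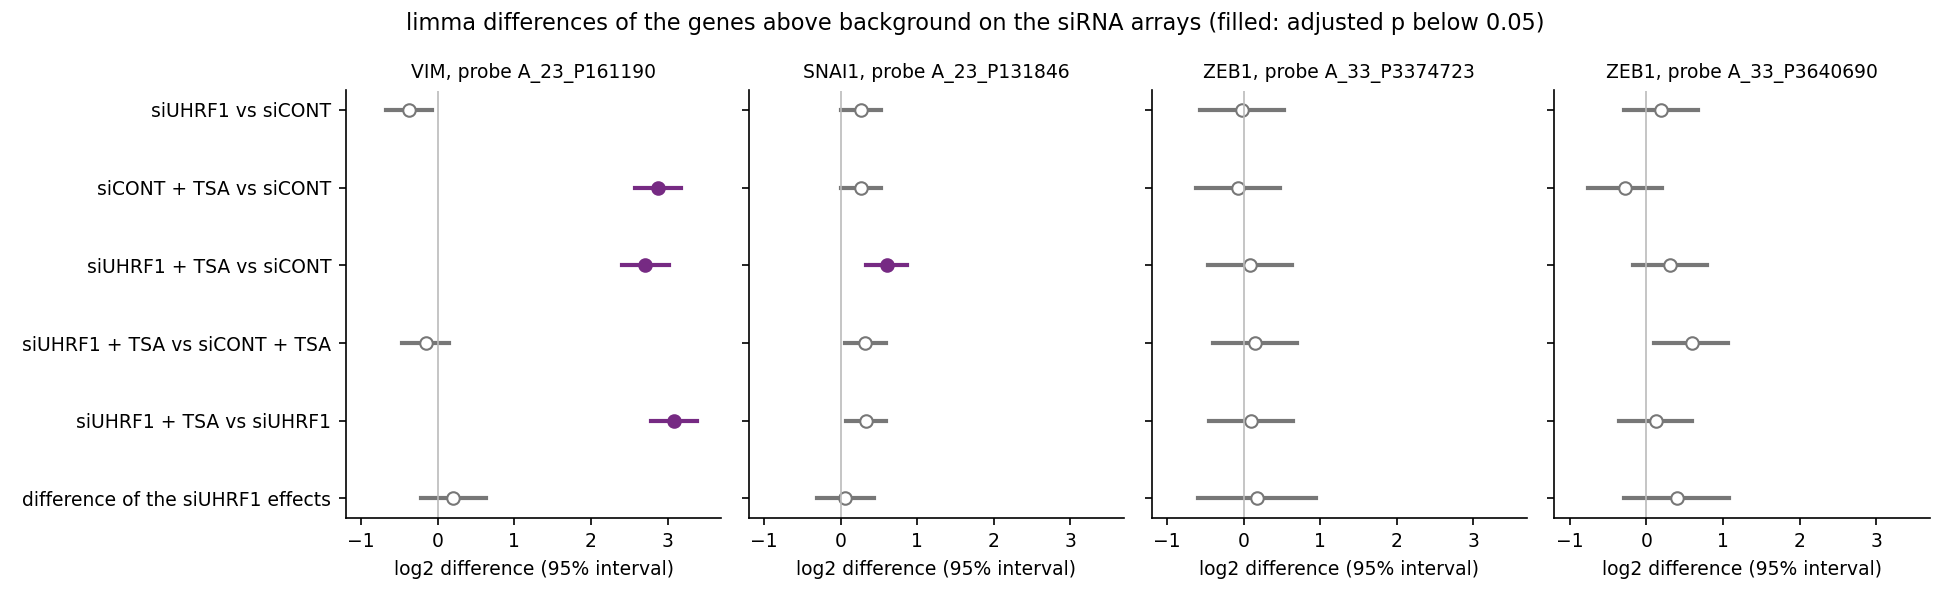
Log2 differences from limma with 95% intervals for the 4 probes of VIM, SNAI1 and ZEB1, in 6 comparisons. Filled purple points have an adjusted p below 0.05. The VIM intervals lie between 2.41 and 3.38 in the 3 comparisons of a TSA group with a mock group, and the ZEB1 points are all open.

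SNAI1, which encodes Snail, rose in 1 comparison and by less than VIM. Its log2 level was 1.16 and 1.31 in siCONT, 1.42 and 1.58 in siUHRF1, 1.48 and 1.53 in siCONT + TSA, and 1.88 and 1.78 in siUHRF1 + TSA. The depleted arrays with TSA were the highest, and the siCONT arrays the lowest. siUHRF1 + TSA exceeded siCONT 1.51-fold, a log2 difference of 0.60 with a standard error of 0.108 (95% interval 0.33 to 0.86, adjusted p = 0.0128, limma). Each treatment added to the other gave 0.32 (depletion under TSA, 95% interval 0.06 to 0.59, adjusted p = 0.198) and 0.33 (TSA in depleted cells, 0.07 to 0.59, adjusted p = 0.0896). The call rests on the libraries used: without siCONT replicate 1 the adjusted p was 0.105, without siCONT replicate 2 it was 0.0609, and without siUHRF1 + TSA replicate 1 it was 0.0504. It was also lost under 2 other ways of processing the signals, with an adjusted p of 0.0679 with normexp background correction and 0.105 with spike-in scaling, which moved the median of all genes from 0.07 to -0.08 in this comparison.

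ZEB1, the repressor measured by 2 probes, did not pass the threshold with either probe in any of the 6 comparisons. The reference probe (A_33_P3374723) read -0.43 and -0.35 in siCONT, -0.21 and -0.61 in siUHRF1, -0.58 and -0.34 in siCONT + TSA, and -0.02 and -0.60 in siUHRF1 + TSA. In both depleted groups replicate 1 was higher than replicate 2, and all 4 groups overlapped. The other probe (A_33_P3640690) read -3.16 and -3.06 in siCONT, -2.93 and -2.91 in siUHRF1, -3.13 and -3.64 in siCONT + TSA, and -2.61 and -2.98 in siUHRF1 + TSA. Its depletion effect under TSA was 0.59 (95% interval 0.10 to 1.07, adjusted p = 0.205), and the same difference for the reference probe was 0.15 (-0.40 to 0.70). Direction differed between the 2 probes for siUHRF1 against siCONT, and normexp background correction turned the sign of the second probe in 4 comparisons.

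EPCAM and SNAI2 were near the limit of detection on the siRNA arrays. EPCAM read -3.27 on siCONT replicate 1, where it was measured, and -6.34 on siCONT replicate 2, where it was not. It was -6.09 and -5.85 in siUHRF1, -6.26 and -6.18 in siCONT + TSA, and -4.24 and -4.54 in siUHRF1 + TSA, all below background. The lowest signal marked well above background on the siRNA arrays lay between -4.53 and -4.08, so these readings have no order. SNAI2 (Slug) was measured on both arrays with the siRNA siUHRF1-1, at -3.37 without TSA and -2.81 with it. With siUHRF1-2 it was -5.18 and -4.33, and with control siRNA it lay between -4.96 and -4.35, none of them well above background. With and without TSA the siUHRF1-1 array was above the siUHRF1-2 array, with 1 array for each and no test.

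The 5-aza-dC array gave the highest level of VIM, and higher levels of most other members. It had 1 array and no siRNA, so the differences from siCONT are descriptions without a replicate check, and the drug, slide and scan cannot be told apart. VIM read 5.66, which was 67.1-fold above siCONT (log2 6.07), 9.13-fold above siCONT + TSA and 10.2-fold above siUHRF1 + TSA. All 7 members whose brightest probe could be compared with siCONT were past 2-fold higher, against 18.3% of genes past 2-fold higher and 13.2% past 2-fold lower. SNAI2 was not highest on this array, at -3.04 against -2.81 on siUHRF1 + TSA replicate 1. Of these 7 genes CDH2, EPCAM, SNAI2 and TWIST1 entered the comparison only because they were measured on the 5-aza-dC array. Among all genes compared, 2452 entered in that way, and 1886 of them were past 2-fold higher. VIM, ZEB1 and SNAI1 were measured on all 8 siRNA arrays, and 7.27% of all such genes were past 2-fold higher.

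Where siCONT was below background, only an approximate lower limit can be given. It sets the 5-aza-dC level against the lowest signal marked well above background on the siCONT arrays. Some unmarked probes read higher than that, such as a PTPRC probe at -3.79 on siCONT replicate 2, so small limits are not firm. CDH2 was at least 27.9-fold higher by one probe (0.48) and at least 7.21-fold higher by the other (-1.47). TWIST1 was at least 3.54-fold higher by one probe, and its other probe was below background on all 9 arrays. ZEB2 was at least 2.6-fold and at least 1.24-fold higher by 2 probes, and the third was below background everywhere. SNAI2 was at least 2.44-fold higher. Normexp background correction turned SNAI2 to -0.09 and the lower of these ZEB2 differences to -0.26 (log2). EPCAM, the epithelial adhesion molecule, was at -0.11, which was at least 20.6-fold above siUHRF1, at least 16.3-fold above siCONT + TSA and at least 17.6-fold above siUHRF1 + TSA.

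Among the members measured throughout, ZEB1 was 4.59-fold and 4.87-fold above siCONT by its 2 probes (log2 2.20 and 2.28), and SNAI1 was 2.23-fold above (log2 1.16). ZEB1-AS1, the transcript antisense to ZEB1, was at -0.90 against siCONT by both of its probes, the opposite direction. The size of these differences depends on the scaling. When arrays were scaled on 245 spike-in spots in place of the 75th percentile, the median of all genes on the 5-aza-dC array moved from 0.04 to -1.84 against siCONT. VIM was then 4.18 higher and ZEB1 0.31 and 0.40 higher, and SNAI1 turned to -0.73. EPCAM was 2.80 higher, with 1 of 2 siCONT arrays measured. CDH2 (4.13 and 2.78), TWIST1 (1.95), ZEB2 (1.47 and 0.59) and SNAI2 (-0.50) were below background in siCONT, so these differences have no measured size. The lower limits above hold for the 75th percentile and would be smaller with spike-in scaling. Both scalings subtract a single value per array, so a gene's distance from the median of all genes could not differ between them.

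**Figure D3:**
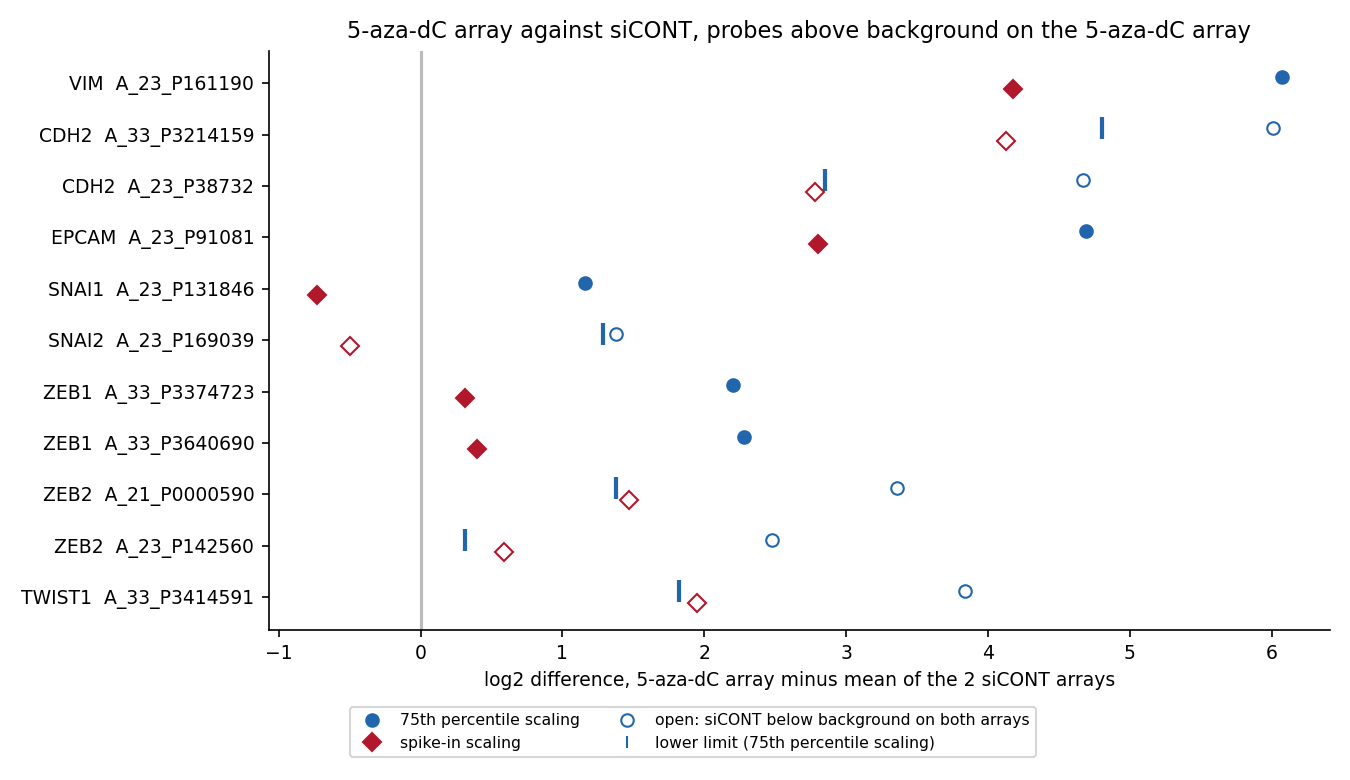
Log2 difference of the 5-aza-dC array from the mean of the 2 siCONT arrays, for the 11 member probes measured on it. Circles use the 75th percentile and diamonds the spike-in spots, open symbols mark probes below background on both siCONT arrays, and vertical ticks give the lower limit under the first scaling. EPCAM is filled with 1 of 2 siCONT arrays measured. VIM lies at 6.07 and 4.18, and SNAI1 and SNAI2 lie below 0 with the spike-in scaling.

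The wider program was described through 4 lists of other genes, none of them a member: 47 epithelial genes, 46 mesenchymal genes, 20 transcription factors of the transition and 31 genes of TGF-beta and BMP signalling. Testing required both arrays of 1 or more groups to be well above background, so that a gene measured only where it was high had to differ. Of the 100 genes tested, 80 were measured on all 8 siRNA arrays, and the counts are given for these too. TSA alone called 4 of 39 tested epithelial genes higher and 2 lower (median log2 difference 0.02), and 4 of 29 mesenchymal genes higher and 2 lower (median 0.18), beside 6.97% higher, 3.86% lower and a median of 0.08 over all genes. Among genes measured on all 8 arrays 3 of 33 epithelial genes were higher and 1 lower, and 4 of 20 mesenchymal genes were higher and 2 lower, beside 6.95% and 3.81% of all such genes. CNN1 (calponin) rose by 1.52 (adjusted p = 0.0255, limma), S100A4 by 1.43 (adjusted p = 0.0134) and MYL9 by 0.66 (adjusted p = 0.0246). TPM2 (tropomyosin) fell by 0.86 (adjusted p = 0.0203) and TAGLN by 0.56 (adjusted p = 0.0427). Among epithelial genes CD24 rose by 1.37 (adjusted p = 0.00906) and PRSS8 by 1.19 (adjusted p = 0.0116). The integrin ITGB4 was also called higher, with both groups below background and so no measured size. OCLN (occludin) fell by 0.73 (adjusted p = 0.0151) and CDH3 (P-cadherin) was at least 1.53-fold lower (adjusted p = 0.0121). SOX4 rose by 1.32 (adjusted p = 0.03) and TCF3 by 0.61 (adjusted p = 0.0266), 2 of the 6 tested factors.

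UHRF1 depletion alone called 4 of the 100 tested genes of the 4 lists, all higher. Over all genes 0.637% were called and 95.6% of the calls were higher. Of the 80 genes measured on all 8 arrays, 2 were called, beside 0.185% higher and 0.0128% lower of all such genes. PRSS8, an epithelial serine protease, rose by 1.90 (adjusted p = 0.00718) and S100A4 by 1.72 (adjusted p = 0.0234). PDGFRB and BMP2 were called with levels near the limit, each at least 1.12-fold higher than siCONT by an approximate limit that is not firm. No transcription factor of the list was called.

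The combination called 46 of the 100 tested genes of the 4 lists, 39 of them higher, and 32 of the 80 measured on all 8 siRNA arrays. Against siCONT, 16 of 29 tested mesenchymal genes were higher and 1 lower (median 0.54), and 11 of 39 epithelial genes were higher and 4 lower (median 0.20), beside 16.1% higher, 8.07% lower and a median of 0.07 over all genes. Among genes measured on all 8 siRNA arrays, 10 of 20 mesenchymal genes were higher and 1 lower (median 0.37), and 7 of 33 epithelial genes were higher and 4 lower (median 0.02), beside 14.2% higher and 8.36% lower of all such genes. GNG11, a G protein subunit, was at least 12.2-fold higher, THY1 at least 6.25-fold and COL1A2, a chain of type I collagen, at least 4.06-fold. CCN1 fell by 0.94 (adjusted p = 0.00651). Of the epithelial genes, the keratin KRT19 was at least 4.26-fold higher, JUP (plakoglobin) at least 2.84-fold and the integrin ITGB4 at least 2.11-fold. KRT19, JUP and ITGB4, like GNG11, THY1 and COL1A2, were measured on both arrays of siUHRF1 + TSA and of no other siRNA group. They entered the test through the group where they were high, so their calls by themselves are no support for a difference. OCLN fell by 1.15 (adjusted p = 0.00148), GRHL1 by 0.83 (adjusted p = 0.00354) and ERBB3 by 0.66 (adjusted p = 0.0101). GRHL1 is an epithelial transcription factor and ERBB3 a receptor of the EGFR family.

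**Figure D4:**
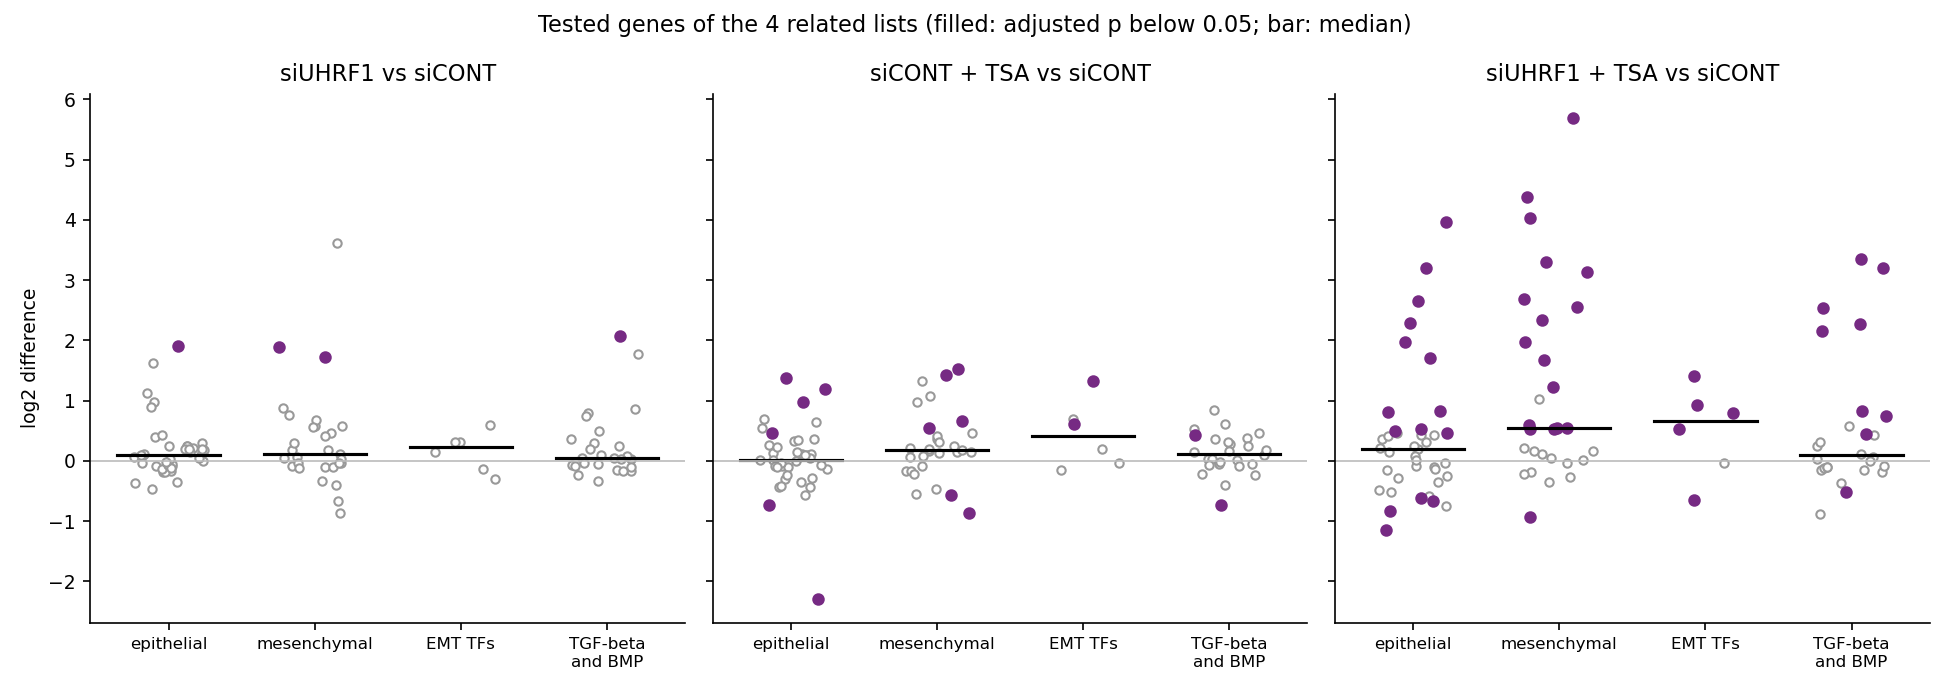
Log2 differences of the tested genes of the 4 lists in 3 comparisons with siCONT. Each point is 1 gene by its brightest probe, filled where the adjusted p was below 0.05, and bars are list medians. The mesenchymal bar lies at 0.54 and the epithelial bar at 0.20 for siUHRF1 + TSA.

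Among the factors, 4 of the 6 tested were higher in the combination and 1 lower. SOX4 rose by 1.41 (adjusted p = 0.0126), SNAI3 by 0.93 (adjusted p = 0.0407) and TCF3 by 0.80 (adjusted p = 0.00574), and the chromatin factor HMGA2 fell by 0.65 (adjusted p = 0.0298). In TGF-beta and BMP signalling 8 of 26 tested genes were higher and 1 lower (median 0.09), and 4 of the 21 measured on all 8 arrays were higher and 1 lower (median 0.03), beside the same 14.2% and 8.36%. The ligands BMP7 and BMP2 were at least 2.7-fold and at least 2.42-fold higher, and the co-receptor ENG at least 1.46-fold. BMP7, BMP2 and ENG also entered the test only through siUHRF1 + TSA, where they were high. The receptor ACVR1 fell by 0.51 (adjusted p = 0.0469). Under TSA, depletion called 9 of 29 mesenchymal genes higher and 0 lower, 5 of 39 epithelial genes higher and 1 lower, 4 of 26 signalling genes higher and 0 of 6 factors, beside 3.22% higher over all genes. Among genes measured on all 8 arrays the counts higher were 5 of 20 mesenchymal, 1 of 33 epithelial and 2 of 21 signalling genes, beside 1.43% of all such genes. ID2, a target of BMP signalling, rose by 1.55 there (adjusted p = 0.00509, limma). ID1 (0.20, adjusted p = 0.79) and ID3 (0.08, adjusted p = 0.693) of the same list were not called, and BMP signalling itself was not measured.

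On the 5-aza-dC array, 17 of 37 mesenchymal genes were past 2-fold higher than siCONT and 5 past 2-fold lower, and 7 of 41 epithelial genes were higher and 9 lower, beside 18.3% higher and 13.2% lower over all genes. Genes measured on the 5-aza-dC array and not on both arrays of any siRNA group entered these counts through that array alone. They were 8 of the 37 mesenchymal genes, 7 of them among the 17 higher, and 2 of the 41 epithelial genes, both among the 7 higher. Of 14 transcription factors 8 were higher and 1 lower, and all 8 had entered in this way. Among genes measured on all 8 siRNA arrays, 5 of 20 mesenchymal genes were higher and 3 lower (median -0.13), 1 of 33 epithelial genes was higher and 9 lower (median -0.50), and 0 of 6 factors were higher and 1 lower. Of all such genes 7.27% were higher and 14.4% lower, with a median of -0.12. Over all genes compared the median was 0.04, and with spike-in scaling it was -1.84.

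The genes whose level followed a member most closely over the 8 siRNA arrays were sought by Pearson's r, as a description. Of the 15633 genes compared, only gene symbols could be named, and names beginning with LOC, XLOC, ENST or LINC were passed over. For VIM they were MRPS17 (r = 0.997), FANCF (0.9966) and MRPL50 (0.9958). For SNAI1 they were UBLCP1 (0.9874), ART5 (0.9871) and COL16A1 (0.9869). For ZEB1 the highest values were lower, KCMF1 (0.9557), DUSP14 (0.9435) and ZNF7 (0.9369). The 8 points share 1 slide and 4 treatments.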

How the data were processed

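The authors extracted 1-colour spot intensity with Agilent Feature Extraction 10.7.3.1 (version per the file headers), which subtracts background and corrects spatial trends. The deposited intensity is linear and not normalized between arrays, and the deposited value table differs from it by at most 0.5%. The study's methods name GeneSpring GX and t-tests, and the normalization of these arrays is not given in the sources used here. Each array holds 62976 spots, 4259 of them controls. No spot was saturated, and no column of another sample was present (0).

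From each log2 signal the 75th percentile of its array was subtracted, outlier spots were left out and spots of a probe averaged. limma 3.58.1 in R 4.3.3 used the 8 siRNA arrays as 4 groups, on the 23726 of 50599 probes (17737 genes) that were well above background in 1 or more whole groups. Calls used a Benjamini-Hochberg adjusted p below 0.05 over these probes. The 5-aza-dC array was counted past 2-fold without a test. The procedure was run on simulated data with the same spread in all 4 groups, unlike these arrays, and no result is drawn from it. A limit for a group below background takes, per array, the higher of the lowest signal well above background and the probe's own signal. Some unmarked probes read above that lowest signal, so the limits are approximate. With 2 arrays a group, their number limits the precision. The median absolute log2 difference between replicates was 0.0699 (siCONT), 0.0756 (siCONT + TSA), 0.19 (siUHRF1 + TSA) and 0.261 (siUHRF1).

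All 10 members were named. The probe of highest mean signal stood for a gene with several. From each list the up to 3 largest rises and falls called without overlap of the groups could be named, with UHRF1, ACTB and GAPDH as checks. For each measured member the 3 gene symbols of highest correlation were named. ID1 and ID3 were given beside ID2. The members and lists were chosen with earlier results of these data known. Alternatives were normexp (offset 50), quantile and spike-in scaling, other filters, outlier spots kept, the deposited table, a replicate block, 2-group fits, the methods' t-test and leaving out each array. Sequences came from RefSeq windows on GRCh38.p14 and the array files.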

Additional observations from a re-analysis of the deposited data

Results flagged for a closer look

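THY1, a surface glycoprotein of fibroblasts, and COL1A2 were the 2 genes of the 4 lists past the threshold in limma's test of whether depletion acted differently under TSA than under mock. Both were measured on the siUHRF1 + TSA arrays alone among the siRNA arrays, at -1.74 and -1.62 for THY1 and -2.23 and -2.37 for COL1A2, and so entered the test through the group where they were high. The fitted differences of 4.42 (adjusted p = 0.000694) and 4 (adjusted p = 8e-04) rest on 3 groups below background. They have no measured size and are no support for a difference. Both genes were also measured on the 5-aza-dC array, at -0.31 and -2.71.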

How the results depend on the processing

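Over 19 alternatives the VIM difference was 2.42 to 2.90 for siCONT + TSA against siCONT (called in 19), 2.42 to 2.86 for siUHRF1 + TSA against siCONT (called in 18) and 2.73 to 3.23 for siUHRF1 + TSA against siUHRF1 (called in 18). The exception in both latter was the methods' t-test after Benjamini-Hochberg adjustment (adjusted p 0.0662 and 0.276), which called 0 members in both. SNAI1 in siUHRF1 + TSA against siCONT was 0.45 to 0.67 and called in 13 of 19. The cause was not tested. With normexp and with spike-in scaling 1 member was called there, VIM. Leaving out 1 array at a time gave 1 to 2 members for siUHRF1 + TSA against siCONT (1 without siCONT replicate 1, siCONT replicate 2 or siUHRF1 + TSA replicate 1) and 1 to 2 for siUHRF1 + TSA against siUHRF1 (2 without siUHRF1 replicate 2). The unadjusted t-test called 1 member each for siUHRF1 against siCONT (VIM) and depletion under TSA (SNAI1). On the 5-aza-dC array 4 members were past 2-fold with spike-in scaling and 3 when a probe had to be measured on all 9 arrays, which leaves fewer genes.

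In the depleted groups the replicate number stands for the siRNA, so siUHRF1 and siUHRF1 + TSA are paired by siRNA. Deviations of same-numbered arrays correlated at 0.47 between these 2 groups. Between other groups they correlated at -0.05 to 0.08, so the number does not pair the samples throughout. The main fit used no pairing, and the replicate block sets 1 replicate effect for all 4 groups. With the replicate block the members called stayed at 0, 1, 2, 0, 1 and 0, with VIM at 2.88 for TSA alone (adjusted p 0.00353) and SNAI1 at 0.60 for the combination (adjusted p = 0.02).

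Signs turned only for uncalled or untested values. With normexp, the ZEB1 probe A_33_P3640690 went to -0.01 (siUHRF1 against siCONT), 0.38 (TSA alone), -0.32 (depletion under TSA) and -0.32 (difference of depletion effects), VIM to 0.00 for depletion under TSA, and on the 5-aza-dC array ZEB2 A_23_P142560 to -0.26 and SNAI2 to -0.09. For TSA in depleted cells A_33_P3640690 went to -0.05 with quantile normalization and -0.04 with spike-in scaling. With spike-in scaling the ZEB1 probe A_33_P3374723 went to -0.07 (combination) and -0.06 (TSA in depleted cells), the SNAI1 difference of depletion effects to 0.00, and on the 5-aza-dC array SNAI1 to -0.73 and SNAI2 to -0.50. Leaving out arrays gave, for A_33_P3374723, -0.22 to 0.18 (siUHRF1 against siCONT), -0.19 to 0.05 (TSA alone), -0.21 to 0.37 (combination), -0.14 to 0.44 (depletion under TSA), -0.19 to 0.39 (TSA in depleted cells) and -0.12 to 0.46 (difference of depletion effects). It gave -0.07 to 0.30 for A_33_P3640690 with TSA in depleted cells and -0.02 to 0.14 for the SNAI1 difference of depletion effects.

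Counts called in the lists moved more. Over 19 alternatives the combination against siCONT called 2 to 19 epithelial, 1 to 17 mesenchymal, 0 to 5 factor and 1 to 10 signalling genes (15, 17, 5 and 9 as reported), and TSA alone called 0 to 17, 0 to 16, 0 to 5 and 0 to 9 (6, 6, 2 and 2). The share of calls that were higher for TSA alone was 64.4%, and 48.4% with normexp, 55.7% with quantile normalization and 51.2% with spike-in scaling. For the combination it was 66.6%, and 69.1% with normexp, 55% with quantile and 54.9% with spike-in scaling. For TSA in depleted cells it was 66.3%, and 64.6%, 55.5% and 52.7% in the same order. For 5-aza-dC past 2-fold it was 58.1%, and 37% with normexp, 50.1% with quantile and 7.1% with spike-in scaling. A block for slide or scan was not run, as all siRNA arrays share 1 of each. The t-test and 2-group fit give no difference of depletion effects.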
